A study of Rattus norvegicus with 56 samples.

Results

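The arrays described here compared the parietal cortex of old, learning-impaired rats with that of young rats, both after sham stimulation. The members are the 8 arrays titled AI_Sham_PCTX and Y_Sham_PCTX that carry no repeat mark, 4 per group and 1 per animal, out of 56 arrays in the series. The study asked how repetitive transcranial magnetic stimulation (rTMS), a train of magnetic pulses given through a coil over the head, changes gene expression in the rat brain, and for sham stimulation the coil was held away from the head. The young rats (Y) were 6 to 7 months old and the aged impaired rats (AI) 26 to 27 months, and all were male Long-Evans rats. The labels set impairment by each animal's learning index in a water maze, with aged unimpaired (AU) rats as those that scored like the young, while the study's methods describe the maze for another set of animals. Tissue was taken 48 h after the session. Before it, each animal had light isoflurane and then the sedative dexmedetomidine, at 0.035 mg per kg in young and 0.03 mg per kg in aged rats. The weights ran from 502 to 788 g in the young and from 714 to 1150 g in the aged animals. Age, impairment, sedative dose and body weight therefore differ together between the groups and cannot be told apart here.

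The classical complement pathway begins when C1q, with the proteases C1r and C1s, binds a target and cleaves C4 and C2. The products cleave C3, whose fragments coat the target and are bound by receptors on phagocytes, which in brain are mainly microglia. In the ageing brain complement components, antigen-presentation genes and interferon-induced genes are widely studied as glial and immune genes. Gene expression in bulk tissue reflects both the cells present and the RNA in each, so fewer cells of a type and less RNA per cell cannot be told apart.

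The promoters of the complement genes that passed the test are shown because these 3 genes moved together. Each line is the 250 bases before the start of the gene in the RefSeq annotation of build GRCr8, 5′ to 3′ on the gene's strand, and the capitals mark a motif described after them. All 3 genes were found in that table.
C3, chr9:2201340-2201589, minus strand: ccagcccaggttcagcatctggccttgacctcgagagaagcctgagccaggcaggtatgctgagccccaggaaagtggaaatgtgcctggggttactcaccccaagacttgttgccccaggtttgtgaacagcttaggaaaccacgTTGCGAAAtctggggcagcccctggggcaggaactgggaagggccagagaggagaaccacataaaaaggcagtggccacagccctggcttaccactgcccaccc
C4a, chr20:4010107-4010356, plus strand: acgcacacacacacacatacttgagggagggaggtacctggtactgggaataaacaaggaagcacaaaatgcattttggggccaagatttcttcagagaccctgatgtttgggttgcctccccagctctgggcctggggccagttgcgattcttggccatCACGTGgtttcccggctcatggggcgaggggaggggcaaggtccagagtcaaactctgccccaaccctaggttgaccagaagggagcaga
C4b, chr20:4201729-4201978, plus strand: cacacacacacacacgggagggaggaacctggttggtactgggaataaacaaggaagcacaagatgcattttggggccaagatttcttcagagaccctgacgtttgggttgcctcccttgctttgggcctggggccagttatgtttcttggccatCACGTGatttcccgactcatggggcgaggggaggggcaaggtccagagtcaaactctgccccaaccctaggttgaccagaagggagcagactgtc

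The C3 promoter held the C/EBP motif TTGCGNAA, searched on both strands, which is present in 0.729% of 33469 promoters of the same length. The C4a and C4b promoters each held the E-box CACGTG, present in 5.59% of promoters, and they were alike in 227 of 255 aligned columns (89.0%). The interferon-gamma activated site TTCNNNGAA (7.67% of promoters), the core of the interferon-stimulated response element (3.41%), the TATA box TATAAA (12.9%) and the NF-kB consensus (3.54%) had no match in these windows. A match or its absence describes these letters and no binding.

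The values are normalised signals on a log2 scale, where 0 is the mean of an array's probes and a difference of 1 is a 2-fold difference in signal. Of the 45598 probes, 32603 were tested, those well above background on at least 3 of the 24 first cortex arrays. The test was limma across all 6 cortex groups with Benjamini-Hochberg adjustment, and called probes are those whose adjusted p fell below 0.05. Between 63.0% and 66.4% of probes were well above background on the 8 arrays. The array of Y 4 stood apart: it had 1448 spots left out against 291 to 738 on the others, and 370 probes lay over 2 log2 units below the lowest of the other 7 arrays, against 0 to 67 for each other animal. Its signals for the synaptic gene Cplx1 (-2.17, the others 5.32 to 6.44) and the microglial receptor P2ry12 (-0.95, the others 4.95 to 5.60) were such values. The labelled tissue was checked against layer markers: 24 of 24 tested cortical layer genes were well above background on all 8 arrays, Lamp5 averaged 1.96 higher in cortex than hippocampus, and the hippocampal Klk8 averaged 7.25 lower in cortex. A repeat array labelled AI_iTBS 2 differed from AI_Sham 2 by a median of 0.151 log2 units per probe, and from its own first array by 0.283. Repeats of Y_Sham 3 differed by 0.0817 and 0.133, and the closest pair of different animals within the AI_Sham or the Y_Sham group by 0.176, so the label of that repeat or of AI_Sham 2 is in doubt. The count of calls is given below without AI 2 and without Y 4, and list values where leaving out 1 animal moved them. Slides were shared unevenly, with Y 1, Y 2 and AI 1 on 1 slide, AI 2 to AI 4 on another, and Y 3 and Y 4 on 1 slide each.

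The cortex of old impaired rats had more signal for complement C3, C4a and C4b and for a set of transcripts without a gene symbol. Of the 32603 probes, 26 were called (0.0797%), 22 higher (0.0675%) and 4 lower (0.0123%) in the old impaired animals. Without adjustment, 1335 were higher (4.09%) and 1442 lower (4.42%) at p under 0.05. All 4 old impaired animals lay above all 4 young ones in 628 probes (1.93%) and below them in 874 (2.68%), and in 302 (2.26%) and 369 (2.77%) of the 13336 named genes represented by 1 probe each. The 6 called probes with a gene symbol were all higher, and they belong to C3, C4a, C4b, Bpifb4, Spdye4 and Klf14. The count was 41 without AI 2 and 16 without Y 4. The volcano plot places these probes against all others.

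**Figure D1:**
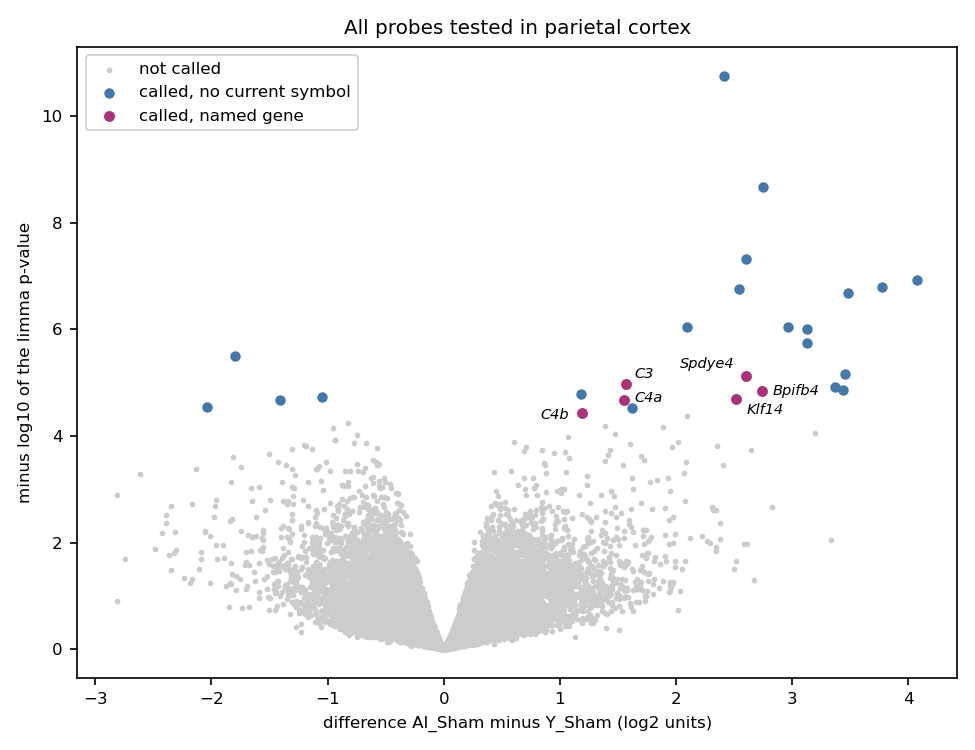
Each point is 1 probe of the 32603 tested, with the AI_Sham minus Y_Sham difference (log2 units) on the x axis and -log10 of the unadjusted limma p on the y axis; the called probes stand out from the rest. The 22 called probes on the right outnumber the 4 on the left, and C3, C4a and C4b lie at differences of 1.57, 1.55 and 1.19.

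C3, the component on which the complement pathways converge, read 4.29, 4.66, 4.84 and 5.08 in AI 1 to AI 4 and 3.41, 2.44, 3.61 and 3.12 in Y 1 to Y 4. Every old impaired animal was above every young one. The difference was 1.57 ± 0.27 (SE, n = 4 per group; 2.97-fold; adjusted p = 0.0232, limma). C4a read 1.38, 0.81, 1.37 and 1.86 in AI 1 to AI 4 against -0.52, -0.36, 0.15 and -0.06 in Y 1 to Y 4. Again the groups did not overlap, and the difference was 1.55 ± 0.28 (SE, n = 4 per group; 2.93-fold; limma adjusted p = 0.0298).

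C4b, like C4a a copy of the C4 gene, read 4.58, 4.17, 4.50 and 5.03 in AI 1 to AI 4 against 3.32, 3.40, 3.46 and 3.32 in Y 1 to Y 4. The lowest old animal was above the highest young one, with a difference of 1.19 ± 0.23 (SE, n = 4 per group; 2.29-fold; limma adjusted p = 0.0457). A second C4b probe differed by 1.39 with a limma adjusted p of 0.149. C4a and C4b are near-identical in sequence, so a probe named for one may also take up transcripts of the other, and the values of the pair are uncertain as separate genes.

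The direction of the 3 genes held without any 1 of the 8 animals, and their calls did not: C3 missed the threshold without AI 3, AI 4, Y 2 or Y 4 (differences 1.34 to 1.57, limma adjusted p 0.068 to 0.145), C4a without any 1 animal other than AI 2 and Y 3, and C4b without any 1 animal other than AI 2. With slide as a random block the limma adjusted p of C3, C4a and C4b was 0.0825, 0.0825 and 0.184, and with the 8 arrays fitted alone 0.416, 0.226 and 0.212.

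**Figure D2:**
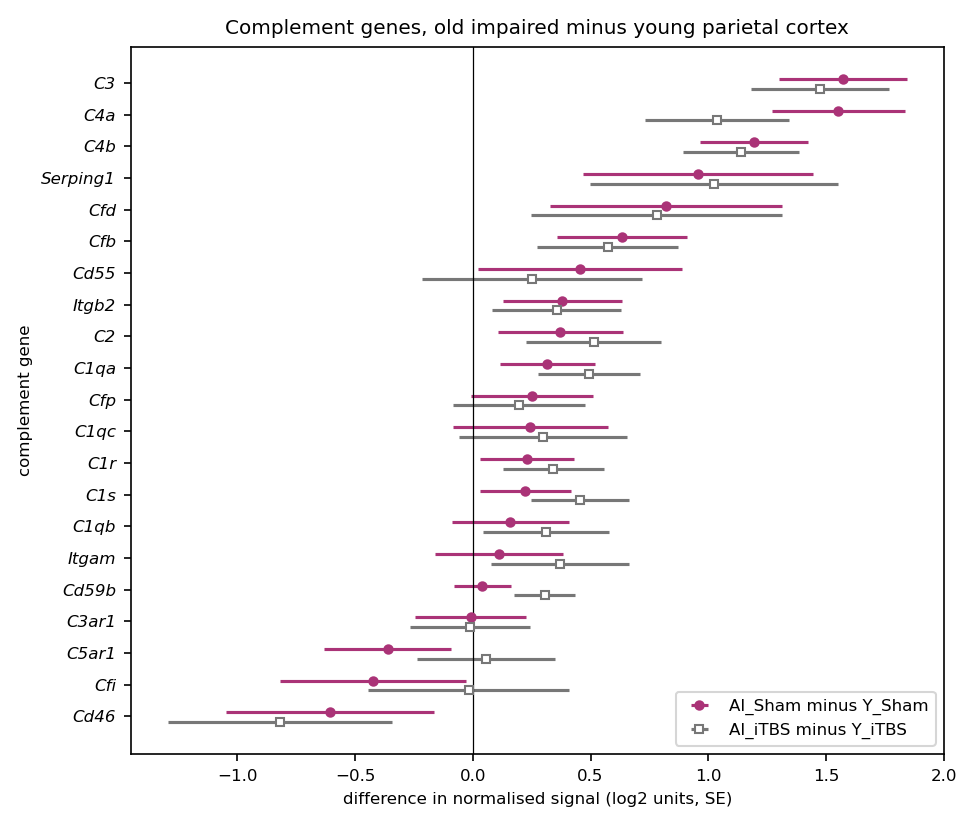
Old impaired minus young differences (log2 units, x axis) of 21 of the 22 tested complement genes in parietal cortex, filled points for sham animals and open squares for iTBS animals, each with its SE from limma. In the sham animals C3, C4a and C4b sit at 1.57, 1.55 and 1.19, and the other genes shown between -0.61 and 0.96.

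Of the 22 complement genes tested, 3 were called, all higher, against 5 called of the 13336 named genes (0.0375%). These calls come from the adjustment over all 32603 probes: when the 13336 probes of named genes were fitted and adjusted alone, 0 were called, with limma adjusted p of 0.0567 for C3, 0.0603 for C4a and 0.0825 for C4b. At an unadjusted p under 0.05, 4 were higher (5.1% of all named genes were) and 0 lower (3.71%). The median difference was 0.25 against 0.02 over all named genes, and 17 of 22 were higher, where 52.8% of all named genes were. With each of the 8 animals left out in turn the median ran from 0.18 (without AI 4) to 0.41 (without AI 2). The genes below were taken for their place in the pathway after their values were seen, and none of them passed the test. At the start of the cascade the C1q chains C1qa, C1qb and C1qc differed by 0.32, 0.16 and 0.24, and the proteases C1r and C1s by 0.23 and 0.22. C2, which forms the C3-cleaving enzyme together with C4, differed by 0.37. Of the inhibitors, Serping1, which blocks C1r and C1s, differed by 0.96 ± 0.49 (SE; limma adjusted p = 0.610), Cd55 by 0.45, Cd59b by 0.04 and Cd46 by -0.61. Cfb, a protease of the alternative pathway, differed by 0.63 ± 0.28 (SE; limma adjusted p = 0.561) and Cfd, which cleaves it, by 0.82. Cfi, which degrades C3b and C4b, differed by -0.42 and was well above background on 1 old and 2 young arrays, and Cfp, which stabilises the alternative pathway enzyme, differed by 0.25. For the receptors the differences were 0.11 for Itgam, 0.38 for Itgb2, -0.01 for C3ar1 and -0.36 for C5ar1.

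The remaining named calls were of dim probes. Bpifb4, a member of the BPI fold family, read -1.18, -1.53, -0.81 and -1.15 in AI 1 to AI 4 and was not well above background on any young array, where it read -2.92, -4.42, -3.34 and -4.94. The old animals were all above the young, at least 3.59-fold higher, and the fitted difference was 2.74 ± 0.48 (SE, n = 4 per group; limma adjusted p = 0.0254). The bound sets the old mean against the higher, on each young array, of the probe's own signal and the dimmest probe well above background.
Spdye4, of the Speedy family of cyclin-dependent kinase binding proteins, read -3.35, -2.39, -1.70 and -2.13 in AI 1 to AI 4 and -4.89, -5.04, -4.88 and -5.18 in Y 1 to Y 4. It was well above background on 3 of 4 old arrays and on 0 of 4 young ones, at least 1.53-fold higher (fitted difference 2.61 ± 0.44, SE, n = 4 per group; limma adjusted p = 0.0175). No array of the other cortex groups had it well above background. The probe therefore entered the test only through the group where it was high, and its call cannot be read like those of C3, C4a and C4b. Bpifb4 in turn entered the test only through aged arrays. It was well above background on 4 of 4 AI_Sham, 1 of 4 AU_Sham, 5 of 5 AU_iTBS and 2 of 3 AI_iTBS cortex arrays. On the young side this was 0 of 4 Y_Sham and 0 of 4 Y_iTBS arrays.
Klf14, a Krüppel-like transcription factor, was called through 1 of its 2 probes. That probe read -0.59, -0.94, 0.09 and 0.08 in AI 1 to AI 4 and -2.85, -1.15, -3.35 and -4.06 in Y 1 to Y 4, so that AI 2 and Y 2 nearly met, and it was well above background on 1 young array. Its difference was 2.51 ± 0.46 (SE, n = 4 per group; limma adjusted p = 0.0298), while the brighter probe differed by 0.11 ± 0.29 (limma adjusted p = 0.943).

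**Figure D3:**
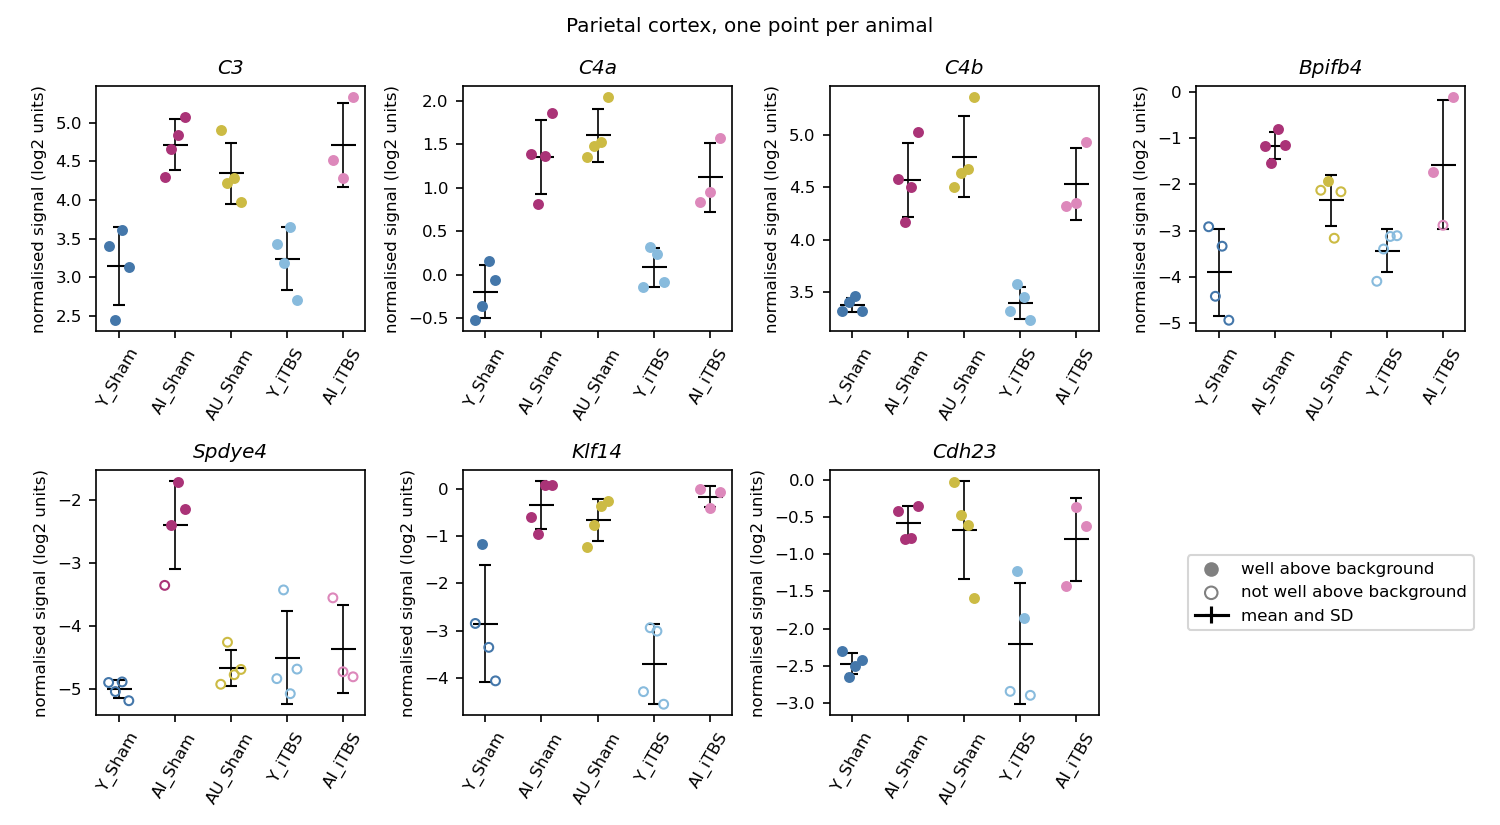
Normalised signal (log2 units, y axis) of 7 named genes in each animal of 5 cortex groups (points, open where the probe was not well above background), with the mean and SD of each group; Klf14 is shown by its called probe. C3 reads 4.29 to 5.08 in the old impaired animals and 2.44 to 3.61 in the young, with no overlap.

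Spdye4 and Bpifb4 each lost the call in 5 of the 8 fits that left out 1 animal, and Klf14 in 6, with the direction kept in all of them.

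Cdh23, a cadherin known from the links between sensory hairs of the inner ear, missed the threshold. It read -0.42, -0.80, -0.78 and -0.35 in AI 1 to AI 4 and -2.30, -2.65, -2.51 and -2.42 in Y 1 to Y 4, without overlap. The difference was 1.88 ± 0.38 (SE, n = 4 per group; limma adjusted p = 0.0752). It passed with quantile scaling (limma adjusted p = 0.0331) and with the 8 arrays fitted alone (limma adjusted p = 0.0098).

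No gene symbol in the annotation used was found for 20 of the called probes, and 16 of these were higher and 4 lower. Of the higher ones, 4 were not well above background on any young array and were at least 2.68-fold to at least 7.10-fold higher, and the other 12 differed by 1.18 to 3.77. Some of these 12 were well above background on only 1 or 2 young arrays, so their sizes are uncertain. The probe at 3.77 was so on 1 young array. Of the lower ones, 1 was not well above background on any old impaired array and was at least 1.86-fold lower, and the others differed by -1.05 to -1.80. XR_589982 read 3.75, 4.16, 3.76 and 3.62 in AI 1 to AI 4 and 1.38, 1.66, 1.35 and 1.24 in Y 1 to Y 4. Both groups were tight and far apart, with a difference of 2.42 ± 0.18 (SE; limma adjusted p = 5.59e-07), the smallest adjusted p of the comparison. XR_598705 read 0.47, -0.07, 0.66 and 0.14 in the old animals and -2.80, -2.08, -2.27 and -2.65 in the young, a difference of 2.75 ± 0.27 (SE; limma adjusted p = 3.42e-05).
Of the lower probes, XM_008770864 read -2.49, -2.36, -2.46 and -3.21 in AI 1 to AI 4 and -0.79, -0.46, -0.71 and -1.38 in Y 1 to Y 4. No old animal reached the lowest young one, and the difference was -1.80 ± 0.28 (SE; limma adjusted p = 0.00857). ENSRNOT00000045348 differed by -1.05 ± 0.19 (SE; limma adjusted p = 0.0298), but by 0.42 on the slide shared by AI 2 to AI 4 and a repeat array of Y 3. On that slide XR_589561, a higher call not well above background on any young array, differed by -0.07. Of the 26 calls, 24 kept their sign there and on the slide of AI 1, Y 1 and Y 2.

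No named gene was called lower. The smallest p-values in that direction belonged to genes whose limma adjusted p ran from 0.0907 to 0.169. Among them were Slc22a3, a transporter of organic cations including monoamines (-0.93 ± 0.20, SE; limma adjusted p = 0.105), and Hapln1, a link protein of the matrix around neurons (-0.58 ± 0.13, SE; limma adjusted p = 0.152). Hpgd, which breaks down prostaglandins, differed by -1.10, the integrin chain Itga4 by -1.09, the synaptotagmin Syt10 by -0.98 and the secreted-protein precursor Ambp by -1.42. Ambp was well above background on 1 of 4 old impaired arrays, so its size is uncertain, and AI 2 (-2.37) lay within the young range. Further values were -0.68 for Brinp3, -0.94 for the muscle myosin Myh1, -1.20 for Selenov and -0.74 for LOC100911946. On the higher side and also short of the threshold were Clmn (1.07, limma adjusted p = 0.0971), the uroplakin Upk1a (2.02, limma adjusted p = 0.108) and the protocadherin Pcdhb4 (0.71, limma adjusted p = 0.112). A dimmer Clmn probe differed by 0.36 (limma adjusted p = 0.83). For Upk1a, AI 1 (0.31) lay within the young range, where Y 3 was highest at 0.42.

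Antigen presentation had no called member. For this and the following lists, the shares over all named genes were 52.8% higher, and 5.1% higher and 3.71% lower at an unadjusted p under 0.05. Of 8 MHC class II genes, all 8 had a positive difference, 3 at an unadjusted p under 0.05, with a median of 0.74 (0.56 without Y 4 to 0.90 without AI 2, the range with 1 animal left out). Without AI 4, 1 was at an unadjusted p under 0.05. Cd74, the chaperone chain of class II molecules, read 3.69, 2.60, 4.00 and 4.75 in AI 1 to AI 4 and 1.73, 1.76, 2.97 and 1.58 in Y 1 to Y 4. AI 2 lay within the young range, and the difference was 1.75 ± 0.67 (SE; limma adjusted p = 0.504). RT1-Da and RT1-Db1, chains of a class II molecule, differed by 1.53 and 1.01.
Of 15 MHC class I and loading genes, 12 were higher, 7 of them at an unadjusted p under 0.05, with a median of 0.46. RT1-A1, a class I heavy chain, read 6.02, 5.79, 6.23 and 6.83 in AI 1 to AI 4 and 5.67, 5.39, 5.67 and 5.53 in Y 1 to Y 4, with no overlap (0.65 ± 0.20, SE; limma adjusted p = 0.388). Tap1, part of the peptide transporter, differed by 0.88. With 1 animal left out, the class I median ran from 0.28 (without AI 4) to 0.62 (without AI 2), and between 1 gene (without AI 4) and 9 genes (without AI 2) were at an unadjusted p under 0.05, 2 without Y 4, 3 without AI 3 and 4 without Y 2.

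Interferon-induced genes were mostly higher, also with none called: 18 of 21, 9 of them at an unadjusted p under 0.05 and 0 lower, with a median of 0.49. Irf7, a transcription factor of the interferon response, read 1.68, 2.00, 2.89 and 3.75 in AI 1 to AI 4 and 1.52, 1.56, 1.42 and 1.41 in Y 1 to Y 4. The old animals spread widely above a narrow young group, and the difference was 1.10 ± 0.40 (SE; limma adjusted p = 0.480). Usp18, which removes the ISG15 tag from proteins, differed by 1.06, Ifit3 by 1.12 and the signal transducer Stat2 by 0.54. The median was 0.45 on the slide of AI 2 to AI 4 and 0.09 on that of AI 1. With 1 animal left out it ran from 0.26 (without Y 4, and without AI 4) to 0.58 (without AI 1), and 4 genes without AI 4, 6 without Y 4 or AI 3 and 11 without AI 2 were at an unadjusted p under 0.05. With slide as a random block the number was 4.

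The glial lists differed among themselves. Microglial identity genes, which include P2ry12, had 5 of 14 higher, none at an unadjusted p under 0.05, and a median of -0.05 that ran from -0.16 (without Y 4) to 0.01 (without Y 1). Of 23 genes of activated and phagocytic microglia, 19 were higher and 3 were at an unadjusted p under 0.05, with a median of 0.26 that ran from 0.15 (without Y 2; 0.16 without Y 4 or AI 4) to 0.33 (without AI 1). Without AI 4, 1 was at an unadjusted p under 0.05 and higher, and without Y 3, 5. Among these, the lysosomal protease Ctsz read 2.34, 1.46, 2.17 and 2.49 in AI 1 to AI 4 and 1.14, 1.02, 1.45 and 1.43 in Y 1 to Y 4, just without overlap (0.85 ± 0.26, SE; limma adjusted p = 0.382). Cd68, a lysosomal membrane protein of phagocytes, differed by 0.61. Astrocyte genes had a median of -0.04 over 15 genes (-0.09 without Y 2 to 0.08 without Y 1), with 3 at an unadjusted p under 0.05, all higher, including the intermediate filament Gfap (0.86 ± 0.33, SE; limma adjusted p = 0.504) and Aldh1l1 (0.65). Of 14 reactive astrocyte genes, 12 were higher with a median of 0.48. It was 0.26 without Y 4, 0.29 without AI 4, 0.66 without Y 3 and 0.30 with slide as a random block, and was -0.004 on the slide of AI 2 to AI 4 and 0.66 on that of AI 1.

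Myelin and mature oligodendrocyte genes were higher in 23 of 23 tested, 10 at an unadjusted p under 0.05, with none called and a median of 0.52. Sox10, a transcription factor of the oligodendrocyte lineage, read 6.32, 5.40, 5.89 and 6.27 in AI 1 to AI 4 and 5.24, 4.67, 5.49 and 5.25 in Y 1 to Y 4, with AI 2 inside the young range. Its difference was 0.81 ± 0.22 (SE; limma adjusted p = 0.274). The iron carrier Tf differed by 0.75, the myelin enzyme Cnp by 0.61 and the myelin glycoprotein Mag by 0.61, while Mbp, the basic protein of compact myelin, differed by 0.00. The median was 0.10 and 0.30 within the 2 slides that hold both groups, and 0.02 in the hippocampus arrays with the same animal numbers. With 1 animal left out it ran from 0.35 (without AI 4) to 0.61 (without AI 1 or Y 3). Counts at an unadjusted p under 0.05 were 1 without AI 4, 1 without Y 2, 4 without AI 3, 7 without Y 4, 13 without AI 2, 14 without AI 1, 15 without Y 3 and 5 with slide as a random block.

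**Figure D4:**
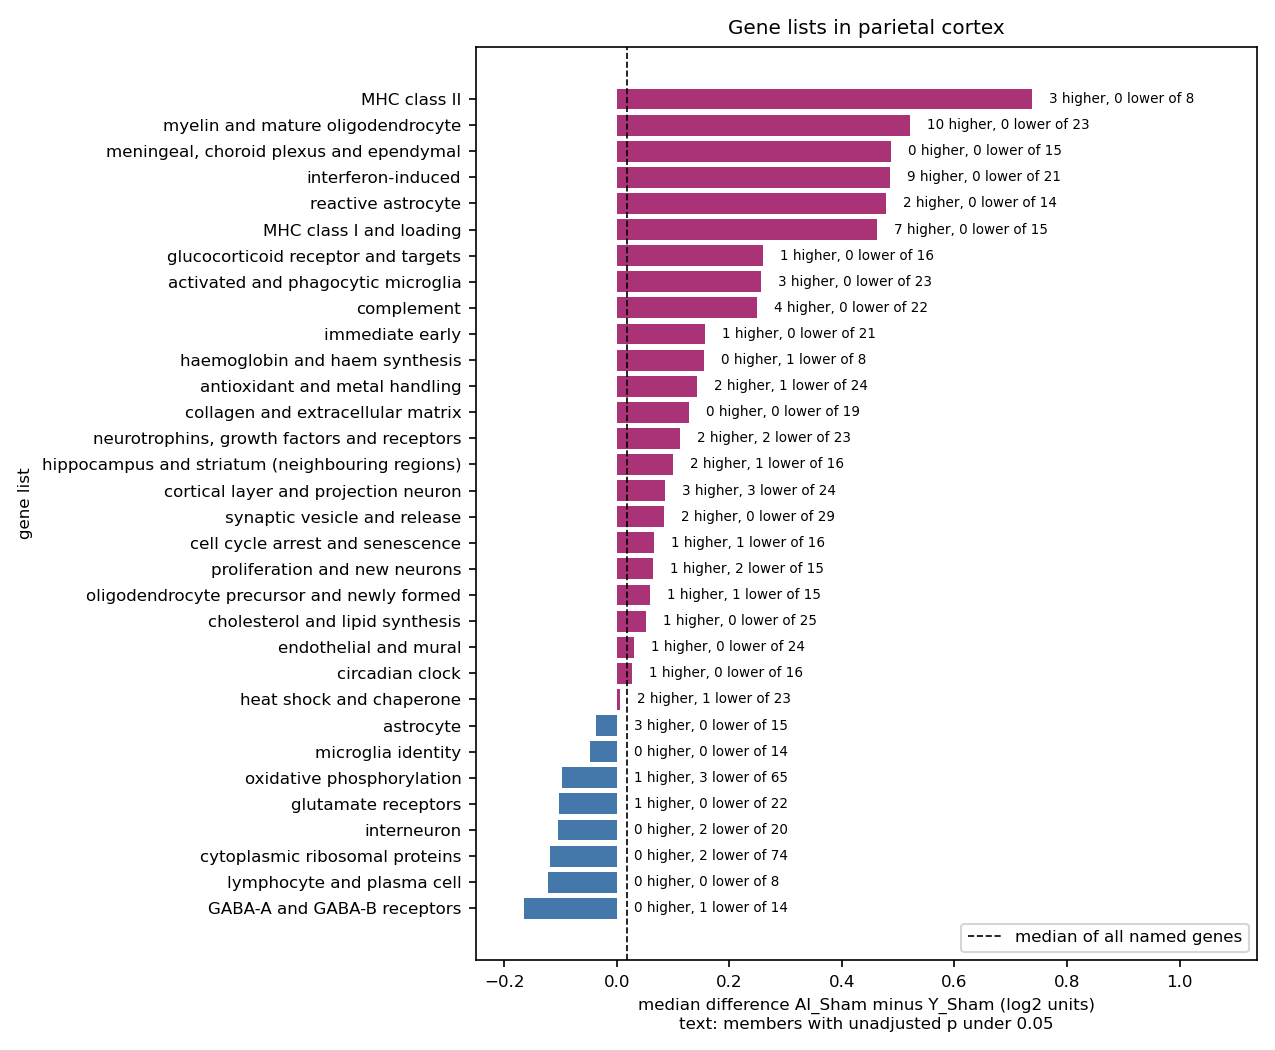
Median AI_Sham minus Y_Sham difference (log2 units, x axis) of each of 32 gene lists in parietal cortex (bars), with the number of members at an unadjusted p under 0.05 beside each bar and the median over all named genes (0.02) as a dashed line. MHC class II lies at 0.74, myelin at 0.52, interferon-induced genes at 0.49 and cytoplasmic ribosomal proteins at -0.12.

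The genes of the glucocorticoid receptor and its targets had 12 of 16 higher, 1 at an unadjusted p under 0.05, and a median of 0.26 that was 0.07 without Y 4 and 0.14 without AI 1. Immediate early genes had a median of 0.16 that turned to -0.27 without AI 1 and -0.01 without Y 1. Antioxidant and metal handling genes had one of 0.14 (0.08 without Y 2 to 0.23 without AI 2), and collagen and extracellular matrix genes one of 0.13 (-0.11 without AI 4, -0.05 without Y 4, 0.28 without AI 2). Cytoplasmic ribosomal proteins had 12 of 74 higher and a median of -0.12, against 0.33 in the hippocampus arrays with the same animal numbers. Without AI 1, 28 of the 74 were higher and the median was -0.02. Oxidative phosphorylation genes had 22 of 65 higher and a median of -0.10, which turned to 0.02 with 34 higher without AI 1. Interneuron genes had 6 of 20 higher, with a median of -0.10 that ran from -0.24 (without AI 2) to -0.06 (without AI 1 or AI 4). Crh, the stress peptide made by some interneurons, read 3.29, 3.46, 2.98 and 3.00 in AI 1 to AI 4 and 3.66, 3.64, 3.61 and 3.89 in Y 1 to Y 4, without overlap (-0.52 ± 0.15, SE; limma adjusted p = 0.322). Among cortical layer genes, the transcription factor Pou3f1 differed by 0.85 (limma adjusted p = 0.113) and Foxp2, a marker of deep layers, by -0.88 (limma adjusted p = 0.294). Genes of cell cycle arrest and senescence had 9 of 16 higher and a median of 0.07, with 1 higher and 1 lower at an unadjusted p under 0.05. Among them Cdkn1a, an inhibitor of the cell cycle, differed by 1.05 (limma adjusted p = 0.172).

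Marker genes of other tissue moved with some lists. Meningeal, choroid plexus and ependymal genes were higher in 15 of 15 tested, 0 at an unadjusted p under 0.05, with a median of 0.49, of -0.49 on the slide of AI 2 to AI 4 and of 0.82 on that of AI 1. It ran from 0.15 without AI 4 to 0.82 without AI 2. Their mean level, relative to the young mean, ran from -0.28 to 1.47 in the old and from -0.61 to 0.85 in the young animals. Haemoglobin and haem genes ran from -0.74 to 0.91 and from -0.84 to 0.65. AI 4 was highest and AI 2 lowest of the old animals in both lists and also in complement, MHC class I, MHC class II and interferon-induced genes. The list of neighbouring regions, hippocampus and striatum, had 8 of 16 tested genes higher and 8 lower, with a median of 0.10. At an unadjusted p under 0.05, 2 of them were higher and 1 lower. Nts, a neuropeptide picked from this list, read 1.47 and 0.47 in AI 3 and AI 4 and -2.55 to -4.87 in the other 6 animals. It was well above background on 3 of the 8 arrays. The part of other tissue in these lists was not tested.

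**Figure D5:**
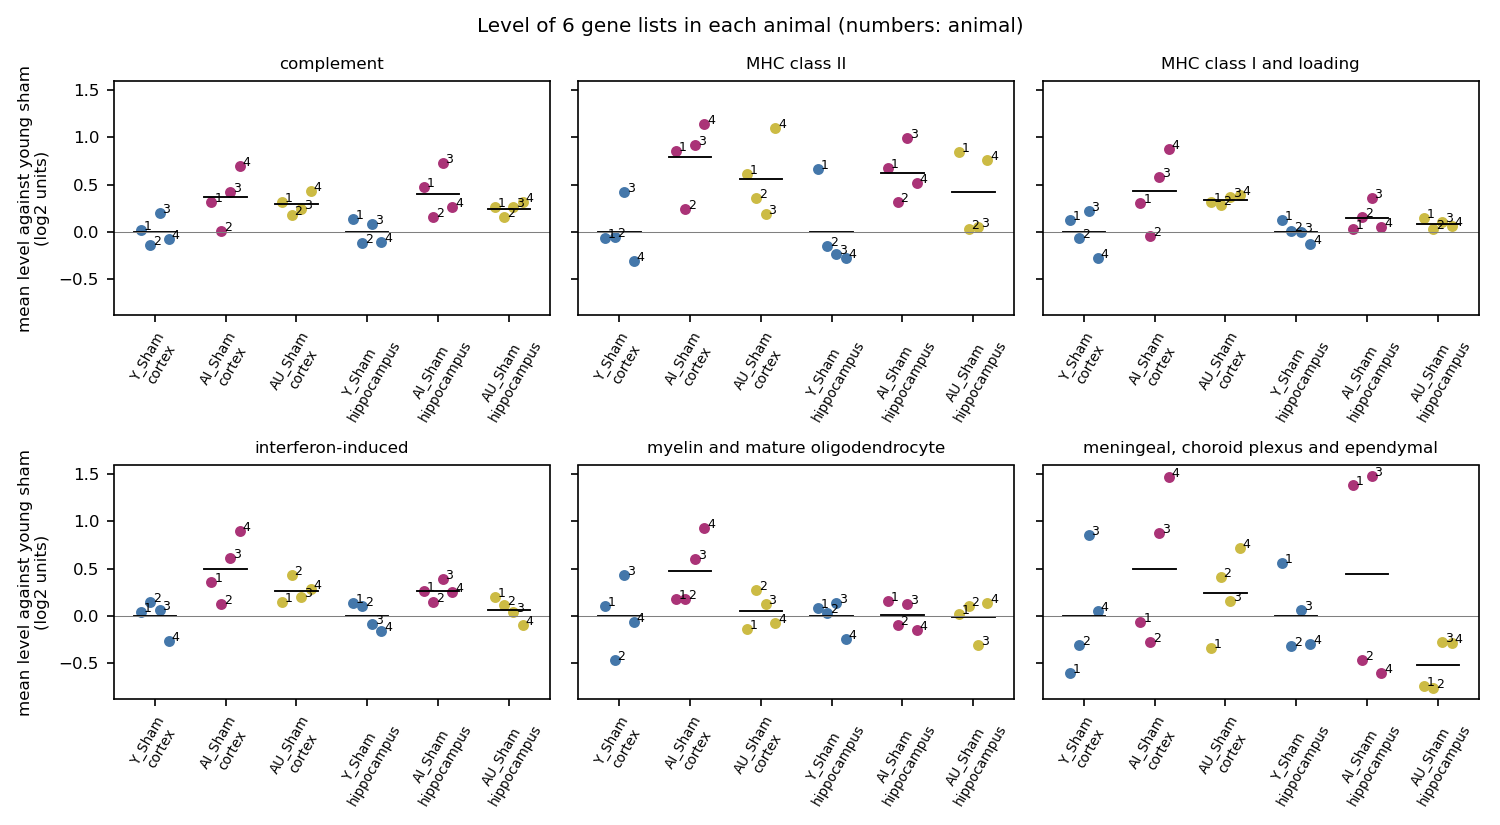
Mean level of the members of 6 gene lists in each sham animal (log2 units relative to the Y_Sham mean of the region, y axis), in cortex and hippocampus, with 1 numbered point per animal and lines at the group means. In cortex complement runs from 0.01 to 0.70 in AI_Sham and from -0.14 to 0.20 in Y_Sham, and the meningeal list from -0.28 to 1.47 and from -0.61 to 0.85.

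Old impaired animals were next set against old unimpaired ones after sham, a contrast of learning within one age. AI 2 to AI 4 lay on 1 slide and AU 2 to AU 4 on another, and only AI 1 and AU 1 shared a slide. Learning and slide therefore cannot be fully told apart in this contrast. No probe was called (0 of 32603, limma). The lowest adjusted p was 0.241, and without adjustment 1191 probes were higher (3.65%) and 838 lower (2.57%) at p under 0.05. C3 differed by 0.37 ± 0.27 (SE), C4a by -0.25 and C4b by -0.22. The unimpaired minus young comparison, which uses the same young arrays, had 18 called probes (0.0552%). Its values were 1.20 for C3, 1.80 for C4a and 1.41 for C4b, beside 1.57, 1.55 and 1.19 for the impaired. C4a and C4b were called there (limma adjusted p = 0.0122 for each) and C3 was not (limma adjusted p = 0.121). XR_589982 and XR_598705 were also called, at 1.91 and 2.27 (limma adjusted p = 3.69e-05 and 0.000845). XM_008770864 and ENSRNOT00000045348, at -0.985 and -0.639, were not. Spdye4 was well above background on 0 of 4 unimpaired and 0 of 4 young arrays, against 3 of 4 impaired ones. The impaired minus unimpaired test, which it entered only through those impaired arrays, gave a limma adjusted p of 0.241. Calls at this number of animals miss smaller differences: in simulated data for the old impaired against young comparison, 2% of the probes given a change of 0.5 log2 units were called, 52% of those given 1 and 88% of those given 2.

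The same contrast was made in animals that received intermittent theta-burst stimulation (iTBS), a patterned form of rTMS. It used 3 AI and 4 Y rats, by label none of them among the 8, with the doubt about AI_Sham 2 or the AI_iTBS 2 repeat given above. AI_iTBS 2 and 3 shared the slide of AI_Sham 2 to 4, and Y_iTBS 2 to 4 that of Y_Sham 4. AI_iTBS 1 and Y_iTBS 1 shared the slide of AI_Sham 1. Likeness between the sham and iTBS contrasts therefore cannot be told apart from shared slides. There 14 probes were called (0.0429%), 9 of which were also called in the sham animals, 34.6% of the 26 sham calls and 64.3% of the 14 iTBS calls. All 26 sham calls had the same sign in the iTBS animals, against 62.3% of all probes tested. The sign of Spdye4 there is not settled (0.14 ± 0.47, SE). The 26 are probes and not separate transcripts, since XR_590924 was called through more than 1 probe. Of the 26, 23 were at an unadjusted p under 0.05 in the iTBS animals, where 2.47% of all probes were so and higher and 2.94% so and lower. C3 differed by 1.47, C4b by 1.14, C4a by 1.04 and Bpifb4 by 1.85 in these animals, none past the threshold. Klf14 was past it at 3.54 (limma adjusted p = 0.00280), and Spdye4 was not well above background on any iTBS array of either group. The list medians were 0.35 for complement, 0.56 for MHC class II, 0.77 for MHC class I, 0.54 for interferon-induced genes and 0.37 for myelin. Whether sham and iTBS animals differ in this contrast was not tested.

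Whether the difference was larger in cortex than in hippocampus was tested on each animal's cortex minus hippocampus value, the 2 regions being matched by animal number. Of 34664 probes, 1 was called (0.00288%): XR_598705, whose old impaired minus young value was 2.75 in cortex and -0.23 in hippocampus, a difference of 2.98 (limma adjusted p = 0.00176). C3, C4a and C4b had hippocampal differences of 1.06, 1.03 and 1.31, and the cortex minus hippocampus differences were 0.51, 0.52 and -0.12, none past the threshold. In the hippocampus alone, 0 of 32417 probes were called by limma, the lowest adjusted p was 0.113, and 1217 probes were higher (3.75%) and 2345 lower (7.23%) at an unadjusted p under 0.05. Of the 26 cortex calls, 24 could be tested there, and 17 had the same sign at an unadjusted p under 0.05. Spdye4 was well above background on 0 of 4 old impaired and 2 of 4 young hippocampus arrays, so its cortex minus hippocampus value has no settled size (limma adjusted p = 0.0905).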

How the data were processed

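RNA from each animal was labelled with Cy3 and hybridised to 1-colour Agilent rat arrays, and the authors deposited Feature Extraction output, whose processed signal intensities are background-corrected and not yet normalised between arrays. The authors also deposited a score table, z-scores of the log signal per array, which matched z-scores computed here to within 0.0050. Here non-uniform and outlier spots were dropped, copies of a probe averaged, and log2 intensities z-scored per array and multiplied by the mean array SD (4.09). RefSeq (GRCr8) named 46.3% of 45598 probes. Groups came from the titles, and 1 first array per animal was used. limma 3.58.1 (R 4.3.3) fitted the 24 first cortex arrays with 6 group means (18 residual degrees of freedom), without a batch term, and was tested on simulated data. Members and gene lists were chosen with earlier results of these data known. Named genes were the called ones, up to 10 in each direction filled by smallest p, up to 4 per list by smallest p, and Cdh23. Beyond this rule, complement genes by role, Mbp and the genes of the array and tissue checks were named after their values were seen, and some genes are not reported here. Genes with several probes were represented by the brightest. Repeat arrays entered no main result. The number of arrays per group limits the precision. Cortex and hippocampus arrays were matched by the animal number they share. The study's own rule, an alternative here, needs ANOVA and z-test p under 0.05, false discovery rate under 0.3, z-ratio over 1.5 in size and a mean z-score over 0.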

Additional observations from a re-analysis of the deposited data

Results flagged for a closer look

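Groups of 4 animals were checked for 1 animal far from the rest, with 1 of 58 groups found and about 1 in 20 found by chance alone. It was the brighter Klf14 probe, on which AI_Sham 1 read 2.13 and the other AI_Sham animals 1.22 to 1.30.

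The difference between old impaired and young sham animals differed between cortex and hippocampus for XR_598705, by 2.98 (limma adjusted p = 0.00176), with AI_Sham minus Y_Sham at 2.75 in cortex and -0.23 in hippocampus.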

How the results depend on the processing

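The old impaired against young comparison called 26 probes, and 20 to 30 with 75th percentile, quantile, deposited-score or normexp values, no filter on dim probes, scan batch as a block or an intensity trend. It called 7 with probes well above background on every array, 17 with slide as a random block, 11 with the 8 arrays alone, 17 with the 12 sham arrays alone, 0 with 1 probe per named gene and 187 under the study's rule (109 higher, 78 lower, 7 of them among the 26), and 11 to 41 with 1 animal left out (lowest without AI_Sham 4, highest without AI_Sham 2; 14 without AI_Sham 3, 15, 17 and 16 without Y_Sham 1, 2 and 4). The old impaired against unimpaired count of 0 became 1 with the replicate block and 0 to 2 with 1 animal left out (2 without AU_Sham 3). The cortex minus hippocampus count of 1 became 4 with 75th percentile scaling, 4 with quantile, 0 with normexp, 3 without the filter, 0 with probes above background on every array, 3 with scan batch and 1 to 18 with 1 animal left out (18 without Y_Sham 3, 13 without AI_Sham 1). The iTBS count of 14 became 8 with normexp, 26 without the filter, 2 with probes above background on every array and 9 to 13 with 1 animal left out (9 without AI_iTBS 2 or 3). The difference of the brighter Klf14 probe ran from -0.11 (without AI_Sham 1, reversed) to 0.19 with 1 animal left out, and reversed to -0.0721 in the largest scan batch. Over 21 named probes, 478 values comprised 389 on the same side of the threshold, 68 no longer past it, 19 newly past it and these 2 reversed. The causes were not tested. Normexp on mean signals was not run, since the arrays' files gave medians, and normexp on medians was added after seeing the data, as were the within-slide values and the gene lists without each animal.

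Replicate numbers did not pair the animals: deviations of same-numbered AI_Sham and Y_Sham animals correlated at 0.134, 0.045, 0.191 and -0.055. With the replicate block, 34 probes were called, and 16 in the iTBS animals.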
